A study of Mus musculus with 20 samples.

Results

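Of the 39253 genes in the deposited count table, 141 carried the ontology term for mRNA splicing via the spliceosome as a whole, exact term in the authors' annotated table of results, which lists 18169 genes. A further 81 genes carried only a wider or narrower splicing term and were not members. Hspa8, set aside by the rule, did not carry the exact term in this file, so its removal took nothing away. Members were chosen by annotation among genes flagged by the authors as kept, and the sources used here do not give the criterion behind that flag. The term was picked with earlier results of these data in view, so directions that those results showed are given here as a description. Genes outside the annotated table were not assessed.

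The samples were antral follicles, 220 to 400 µm wide, from the ovaries of CD-1 mice, an outbred stock, which had been given iodoacetic acid in their drinking water for 35 days starting at day 40 of life. Iodoacetic acid is a by-product of water disinfection. Follicles were isolated at 75 days, and each library pooled 30 to 40 follicles of 1 mouse. Exposed groups were 5 mice at 10 mg/L and 5 mice at 500 mg/L, and the controls were 10 mice on water alone. The study ran as 2 experiments a month apart. Experiment 2 held the mice at 10 mg/L with control replicates 1 to 5, and experiment 1 held the mice at 500 mg/L with control replicates 6 to 10, so each dose has 5 controls of its own experiment. No genotype or transgene differed between the groups. These are bulk samples, in which fewer cells of a type and less RNA per cell cannot be told apart.

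Pre-mRNA splicing removes introns in a machine that is rebuilt on each intron from small nuclear ribonucleoproteins (snRNPs). The U1 snRNP pairs with the 5′ splice site and the U2 snRNP with the branch site, after which the U4/U6.U5 tri-snRNP joins and helicases rearrange the RNAs for the catalytic steps. Sm proteins form a ring on most of these snRNAs and LSm proteins form one on U6, while SR proteins bind exons and recruit the early snRNPs. In the ovary, granulosa cells, theca cells and the oocyte all splice their transcripts with this machinery. The oocyte in addition lives for long periods on stored mRNA.

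The sequences of U1 and U2 show what the U1 and U2 members assemble on. They are from the GENCODE M21 transcripts of Rnu1a1 and Rnu2-10, both on chromosome 11, written as DNA, 5′ to 3′. Capitals mark the bases that pair with the 5′ splice site in U1, at positions 3 to 11, and with the branch site in U2, at positions 33 to 38.
Rnu1a1: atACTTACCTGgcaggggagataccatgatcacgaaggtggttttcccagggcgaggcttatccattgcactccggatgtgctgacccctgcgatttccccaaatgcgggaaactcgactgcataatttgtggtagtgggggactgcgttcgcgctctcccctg
Rnu2-10: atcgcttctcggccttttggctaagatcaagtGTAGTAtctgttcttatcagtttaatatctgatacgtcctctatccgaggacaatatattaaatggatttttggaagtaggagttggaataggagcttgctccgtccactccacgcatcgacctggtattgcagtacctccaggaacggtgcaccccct
Neither RNA is polyadenylated, and the libraries were poly(A)-selected. Rnu1a1 stood at 0.0984, 47.2, 0.0754, 0.303 and 0.610 CPM in replicates 1 to 5 at 10 mg/L, at 0.0442, 0.0765, 0.116, 0.0579 and 0.296 CPM at 500 mg/L, and between 0.0415 and 0.604 CPM in the controls. CPM are counts scaled to a fixed library total, with library sizes adjusted by trimmed means (TMM). Rnu2-10 stood at 0.354, 9.68, 0.427, 0.283 and 0.327 CPM at 10 mg/L, at 0.0442, 0.168, 0.162, 0.154 and 0.524 CPM at 500 mg/L, and at 0 to 0.580 CPM in the controls. In both RNAs, replicate 2 at 10 mg/L stood far above every other mouse. The same library had the lowest level of its group for 46 of the 141 members, and replicate 5 for 55. The main values at 10 mg/L against the 10 controls are therefore also given without replicate 2. Replicate 5 was lowest for more members, and only some values are also given without it. The part that the RNA composition of replicate 2 had in those levels was not tested. The counts of 46 and 55 were not made over all tested genes, so they may not be particular to the members.

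**Figure D1:**
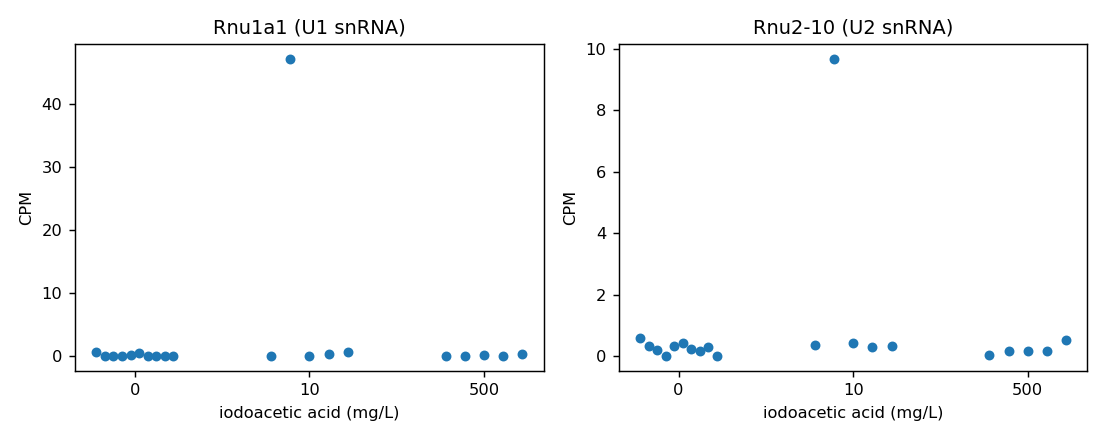
Levels of the snRNAs Rnu1a1 (left) and Rnu2-10 (right) in CPM on linear axes, 1 point per mouse, by dose of iodoacetic acid in mg/L. Replicate 2 at 10 mg/L stands at 47.2 and 9.68 CPM, and all other mice are below 1 CPM.

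Library totals ran from 39.9 to 67.5 M estimated counts (M for mega), and the common biological coefficient of variation, the spread of a gene from mouse to mouse within groups, was 24.98%. Markers of granulosa, theca and oocyte were present in every group. The 5 granulosa markers summed to 4841 to 7912 CPM at 10 mg/L, 4745 to 8163 CPM at 500 mg/L and 5284 to 8030 CPM in the controls. The 4 theca markers summed to 1890 to 6361 CPM, 1817 to 4310 CPM and 1091 to 6963 CPM in the same groups, the 6 oocyte markers to 251 to 492 CPM, 279 to 544 CPM and 255 to 491 CPM. The 4 endothelial markers summed to 180 to 254 CPM at 10 mg/L, 148 to 218 CPM at 500 mg/L and 140 to 218 CPM in the controls. Theca Star, which brings cholesterol into mitochondria, averaged 260 CPM in the controls of experiment 2 and 928 CPM in those of experiment 1. Cyp11a1 went the same way, at 1135 and 1997 CPM. Cyp17a1 (696 and 265 CPM) and Lhcgr (193 and 158 CPM) went the other way. The 3 red cell markers summed to 24.9 to 108 CPM at 10 mg/L, 30.4 to 128 CPM at 500 mg/L and 16.3 to 72.2 CPM in the controls, and each had a higher mean at both doses than in the controls. Leukocyte markers summed to 10.6 to 25.8 CPM, 11.0 to 27.9 CPM and 10.2 to 36.0 CPM in the same groups, and smooth muscle markers to 438 to 873 CPM, 399 to 980 CPM and 412 to 834 CPM. No listed marker of these 7 cell types had a median of 0 in any group, and their part in the results was not tested.

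All 141 members passed the expression filter of edgeR, which kept 17810 genes. Together they took 1.57%, 1.47%, 1.54%, 1.43% and 1.34% of the counts in replicates 1 to 5 at 10 mg/L, and 1.52%, 1.57%, 1.60%, 1.49% and 1.51% at 500 mg/L. In the controls the share ran from 1.40% to 1.63%, with a median of 1.51%. Means were 1.47% ± 0.0919 (SD, n = 5) at 10 mg/L, 1.54% ± 0.0472 (SD, n = 5) at 500 mg/L and 1.52% ± 0.0700 (SD, n = 10) in the controls, and the ranges overlapped. Replicate 5 at 10 mg/L held the lowest share of all 20 mice.

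The median member had 68.2 CPM over the 20 mice, with a lower quartile of 39.0 and an upper quartile of 116 CPM. Scaled by coding length, the most abundant was Hnrnpa2b1, an hnRNP that binds nascent RNA, at 1094 CPM per kb. The highest of the SR family was Srsf3, at 708 CPM per kb. Snrpf led the Sm ring at 372 CPM per kb, Txnl4a, a small U5 snRNP protein, led the tri-snRNP at 329 CPM per kb, and Lsm6 led the LSm ring at 237 CPM per kb. Snrnp70, which binds U1 directly, had 221 CPM per kb, and Sf3b5 of the SF3B complex, which holds U2 at the branch site, had 208 CPM per kb. The exon junction complex marks spliced junctions, and its core subunit Rbm8a had 203 CPM per kb. Ddx39b, a helicase of early assembly and mRNA export, had 201 CPM per kb, and Prpf19, the ubiquitin ligase that names the Prp19 complex, had 181 CPM per kb. Lower maxima were found for other members (BC005624, 62.8 CPM per kb), the minor spliceosome, which removes a rare class of introns (Zcrb1, 58.4 CPM per kb), and the step 2 factors (Slu7, 39.5 CPM per kb). At the low end, Gm32717, Gm21992 and Srsf12 averaged 0.783, 1.55 and 1.61 CPM.

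Levels of most members differed little from one control to the next. Among the 137 with at least 5 CPM, the coefficient of variation over the 10 controls had a median of 8.08%, against 10.5% over the 11740 genes of at least 5 CPM. Of these members, 103 lay below that all-gene median. These are descriptions, with no test. The all-gene set was not matched to the members for level, and the 5th percentiles were close, at 4.61% for members and 4.72% for all genes. Wbp4, which binds splicing factors of the B complex, had the smallest value at 2.52%, with control levels of 44.3 to 48.3 CPM. Casc3, an exon junction subunit, followed at 3.06%, and Cwc25, a factor of the first catalytic step, at 3.82%. The largest belonged to Snrpb2, the U2 B″ protein, at 18.7%, to Srsf5 at 23.0% and to Cwc22, which brings the exon junction helicase to the spliceosome, at 84.8%. Cwc22 stood at 131, 131, 419, 41.7 and 40.2 CPM at 10 mg/L, at 245, 43.2, 387, 52.4 and 309 CPM at 500 mg/L, and at 40.4 to 550 CPM (median 153) in the controls. Low and high mice occurred in every set. The highest was 419 CPM at 10 mg/L, 387 CPM at 500 mg/L, 550 CPM in the controls of experiment 2 and 232 CPM in those of experiment 1, and the lowest lay between 40.2 and 43.4 CPM in each.

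**Figure D2:**
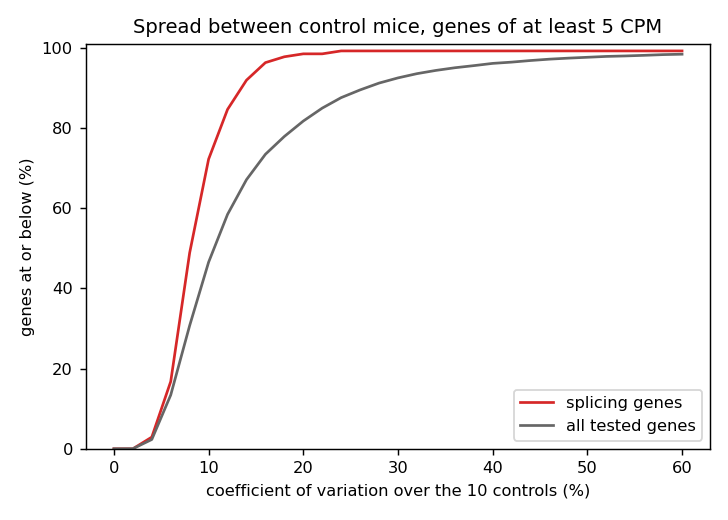
Cumulative share of genes (%, vertical axis) by coefficient of variation over the 10 controls (%, horizontal axis), for members (red) and all tested genes (grey) of at least 5 CPM. The members' curve rises earlier, with medians of 8.08% and 10.5%.

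The first question was whether 10 mg/L shifts the splicing genes. At 10 mg/L against the 10 controls, no member passed the test (edgeR's quasi-likelihood test, Benjamini-Hochberg adjusted over 17810 genes at 0.05, of which 0.00561% passed), and the lowest adjusted p of a member was 0.633. DESeq2 called no member among the 0.0316% of its genes that passed, and limma-voom called none. At an unadjusted p under 0.05 there were 19 members, 13.5% of them, against 6.22% of all tested genes. They were 1 higher and 18 lower, where 3.08% of all genes were higher and 3.14% lower. The median log2 difference was -0.05 for the members and -0.00 for all genes, and 103 members had a negative sign and 38 a positive one. Without replicate 2, 15 were lower and 1 higher, against 2.06% and 2.74% of all genes in that fit, and 100 members were negative. The count of lower members depended on single mice. It was 7 without replicate 5 of the exposed mice and 28 without replicate 1. In those fits 2.74% and 4.71% of all genes were lower, so the all-gene share moved in the same direction. In no member did the exposed mice all lie above or all below the 10 controls, as 0.0449% and 0.0505% of all genes did.

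Rbm8a (Entrez 60365) had 106, 88.0, 88.9, 94.6 and 87.8 CPM at 10 mg/L, against 94.9 to 125 CPM in the controls (median 108). Every exposed mouse but replicate 1 lay below the lowest control, and the groups overlapped through that mouse. The log2 difference was -0.23 (SE 0.06, edgeR adjusted p = 0.633), and -0.20 without replicate 2. Lsm8 (Entrez 76522), the subunit that makes the LSm ring nuclear, had 44.0, 19.2, 38.5, 38.2 and 33.4 CPM at 10 mg/L, against 40.2 to 55.0 CPM in the controls (median 45.6). Only replicate 1 lay within the control range. Its log2 difference of -0.43 (SE 0.13, edgeR adjusted p = 0.633) was -0.27 without replicate 2. Rbm8a and Lsm8 both differed less from the controls of experiment 2 alone. There no LSm gene was below -0.31 and no exon junction gene below -0.17.

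Rbm14 (Entrez 56275), a coactivator and paraspeckle protein, had 75.0, 58.6, 77.4, 79.9 and 67.8 CPM at 10 mg/L, against 64.2 to 97.7 CPM in the controls (median 90.1). One low control, replicate 9, made the groups overlap. The log2 difference was -0.30 (SE 0.09, edgeR adjusted p = 0.65), and -0.23 without replicate 2. On the higher side, Prpf40b, a homologue of a yeast U1 protein, had 54.6, 68.1, 62.9, 51.3 and 50.2 CPM at 10 mg/L, against 46.4 to 54.8 CPM in the controls (median 53.1). Its log2 difference was 0.16 (SE 0.07), and 0.09 without replicate 2. Sf3b1, the largest SF3B subunit, had 374, 394, 343, 369 and 345 CPM at 10 mg/L, against 308 to 376 CPM in the controls (median 339), a log2 difference of 0.10 (SE 0.05), and 0.08 without replicate 2. Both overlapped the controls. By role, all 7 LSm genes had a negative sign at 10 mg/L (median log2 difference -0.08), and 5 did without replicate 2. Negative signs were found for 17 of 22 tri-snRNP genes (-0.04), 15 of 20 U2 genes (-0.06) and 5 of 8 Sm core genes (-0.08), and for 15, 14 and 4 of them without replicate 2. The role of DEAH-box and DEAD-box helicases also holds Gcfc2, which is not such a helicase, and leaves helicases such as Snrnp200 to other roles. This role had 5 of 7 genes positive (median 0.02, the value of Gcfc2), and 4 without replicate 2.

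**Figure D3:**
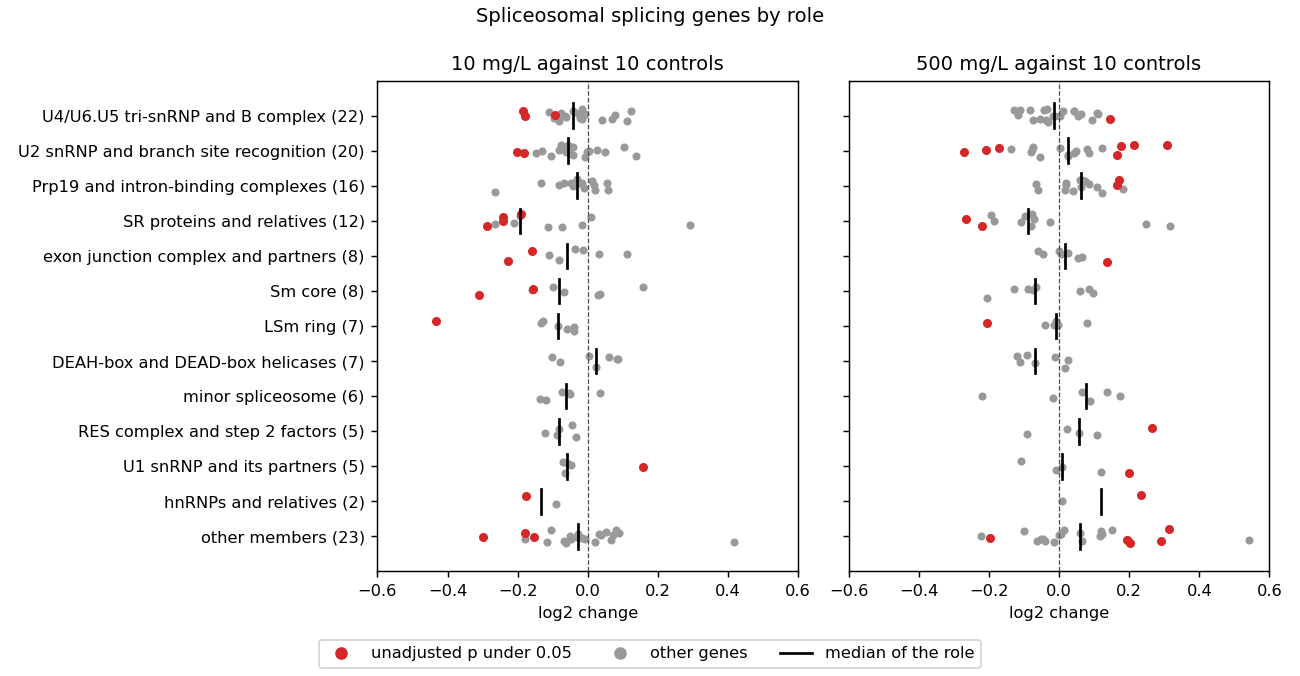
Log2 difference (horizontal axis) of each member by role (vertical axis, number of members in brackets), for 10 mg/L against the 10 controls (left) and 500 mg/L against the 10 controls (right). Red points have an unadjusted p under 0.05 and bars are the medians of the role, which for the SR proteins are -0.19 (left) and -0.09 (right).

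At 500 mg/L against the 10 controls, edgeR called no member either, and 0.0112% of all tested genes passed. The lowest adjusted p of a member was 0.173. DESeq2 called 4 members, all higher (Slu7, Rbm41, Cwf19l2 and Rsrc1), among 0.796% of the genes it tested, and limma-voom called none. At an unadjusted p under 0.05, 22 members (15.6%) stood out, against 8.69% of all genes. Of them 15 were higher and 7 lower, against 4.51% and 4.18% of all genes. The median log2 difference was 0.01, with 77 members positive and 64 negative. Without replicate 5 at 500 mg/L, 4 and not 7 members were lower, against 3.69% of all genes in that fit.

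Rsrc1 (Entrez 66880), a protein rich in arginine and serine that takes part in splicing, had 45.0, 45.1, 44.5, 44.7 and 47.2 CPM at 500 mg/L, against 35.7 to 41.8 CPM in the controls (median 39.9). Each mouse at 500 mg/L lay above each control, which held for no other member and for 0.163% of all tested genes in that direction. The log2 difference was 0.20 (SE 0.04, edgeR adjusted p = 0.173). Slu7 (Entrez 193116), a step 2 factor that helps choose the 3′ splice site, had 80.2, 84.7, 82.8, 74.1 and 77.5 CPM at 500 mg/L, against 57.6 to 75.1 CPM in the controls (median 66.3). Only 1 exposed mouse lay within the control range, and the log2 difference was 0.26 (SE 0.06, edgeR adjusted p = 0.176).

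Cwf19l2 (Entrez 244672), named for a fission yeast protein found in a complex with Cdc5, had 36.2, 41.9, 41.7, 45.6 and 39.6 CPM at 500 mg/L, against 29.9 to 36.7 CPM in the controls (median 34.2). The log2 difference was 0.29 (SE 0.06, edgeR adjusted p = 0.173), with 1 mouse inside the control range. Rbm41, which has an RNA-binding motif, had 18.7, 16.5, 15.6, 19.5 and 17.3 CPM at 500 mg/L, against 12.2 to 15.7 CPM in the controls (median 13.9), a log2 difference of 0.31 (SE 0.07, edgeR adjusted p = 0.176). Again a single exposed mouse overlapped the controls.

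On the lower side at 500 mg/L, the members with the smallest p were Sf3b5, Lsm2 and Phf5a. Other subunits of the same complexes had either sign. Sf3b1 (0.09) was positive, as was Lsm6 (0.08), the only positive LSm gene of 7. In the authors' deposited table, Sf3b2 and Sf3b6 had signed folds of 1.05 and 1.02, and Sf3b3 and Sf3b4 of -1.06 and -1.12. Sf3b5 (Entrez 66125) had 49.6, 54.6, 50.1, 46.4 and 48.2 CPM at 500 mg/L, against 54.3 to 61.8 CPM in the controls (median 56.9). All but 1 exposed mouse lay below the controls, and the log2 difference was -0.21 (SE 0.06, edgeR adjusted p = 0.34). Sf3b5 stood at 54.5, 38.9, 52.4, 53.1 and 50.9 CPM at 10 mg/L, a log2 difference of -0.20 (SE 0.06, edgeR adjusted p = 0.65) from the same 10 controls, which the comparisons of both doses share, and -0.12 without replicate 2. Phf5a, another SF3B subunit, had 30.2, 38.6, 30.9, 30.3 and 32.8 CPM at 500 mg/L, against 29.5 to 46.9 CPM in the controls (median 39.7), and overlapped them at a log2 difference of -0.27 (SE 0.10). Lsm2, a subunit of both the nuclear and the cytoplasmic LSm ring, had 24.7, 27.0, 26.8, 25.0 and 26.2 CPM, against 25.3 to 32.5 CPM in the controls (median 30.0), at a log2 difference of -0.21 (SE 0.07). By role, 14 of 16 genes of the Prp19 and intron-binding complexes were positive (median 0.06), and 6 of 7 LSm genes negative (-0.01), or 2 of 7 without control replicate 10. Against the controls of experiment 1 alone, no U2 gene was below -0.21 and no LSm gene below -0.15.

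**Figure D4:**
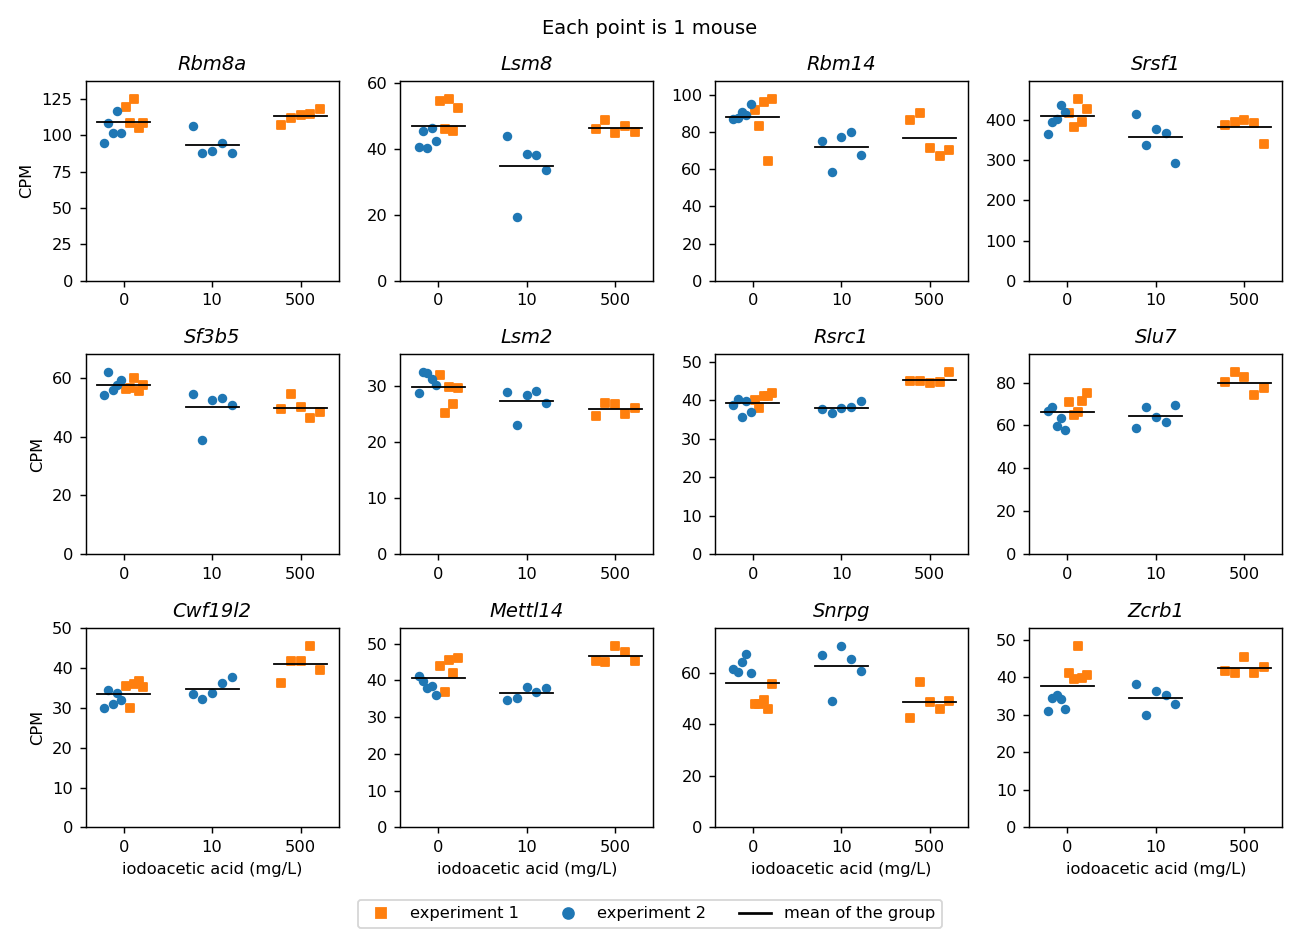
CPM (vertical axes, from 0) of 12 members by dose of iodoacetic acid in mg/L, 1 point per mouse, squares for experiment 1 and circles for experiment 2, with the mean of each group as a line. At 500 mg/L each Rsrc1 point lies above all controls, and Zcrb1 and Snrpg separate the controls by experiment.

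Most SR protein genes had negative log2 differences at both doses, none of them past the test, and Srsf5 was the main exception. Of the 12 genes, 10 had a negative sign in each of 4 comparisons. The median log2 difference was -0.19 at 10 mg/L and -0.09 at 500 mg/L against all controls, and -0.20 and -0.10 against the controls of the own experiment, where the 2 doses share no mouse. Against all controls, Srsf1, Srsf9, Srsf10 and Tra2b were lower at 10 mg/L at an unadjusted p under 0.05, as 3.14% of all genes were, and Srsf2 and Srsf7 at 500 mg/L, as 4.18% were. Against own controls, Srsf1, Tra2a and Tra2b were lower and Srsf5 higher at 10 mg/L, as 2.66% and 3.78% of all genes were. No SR gene had such a p at 500 mg/L, where 2.46% of all genes were lower and 2.73% higher. The 2 positive genes were Srsf5 and Srsf12, and Srsf12 had only 1.61 CPM on average. The median at 10 mg/L against all controls was -0.16 without replicate 2, -0.12 without replicate 5 and -0.14 without control replicate 4. Against own controls at 10 mg/L it was -0.12 without replicate 5 and -0.13 without control replicate 4. The median at 500 mg/L was -0.06 against all controls and -0.05 against own controls without replicate 5. Without control replicate 8 the own-control value at 500 mg/L was -0.04, with 8 genes negative.

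Srsf1 (Entrez 110809), the founding family member, had 415, 338, 378, 366 and 294 CPM at 10 mg/L and 388, 396, 399, 393 and 339 CPM at 500 mg/L, against 364 to 451 CPM in the controls (median 410). The groups overlapped, at log2 differences of -0.19 (SE 0.07, edgeR adjusted p = 0.737) at 10 mg/L and -0.10 (SE 0.07, edgeR adjusted p = 0.74) at 500 mg/L. The value at 10 mg/L was -0.17 without replicate 2 and -0.13 without replicate 5. Srsf5 (Entrez 20384) ran the other way, with 244, 217, 264, 257 and 252 CPM at 10 mg/L and 182, 170, 282, 272 and 292 CPM at 500 mg/L, against 159 to 305 CPM in the controls (median 180). Its controls differed among themselves, at 178 ± 25.9 CPM in experiment 2 and 225 ± 53.1 CPM in experiment 1 (SD, n = 5 each). Against the controls of its own experiment, 10 mg/L gave a log2 difference of 0.47 (SE 0.16, edgeR adjusted p = 0.66) and 500 mg/L one of 0.09 (SE 0.16, edgeR adjusted p = 0.975). The difference between those 2 effects was -0.38 (SE 0.23, edgeR adjusted p = 0.953).

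The sum of the SR genes other than Srsf5 was 2469, 1891, 2163, 2153 and 1713 CPM in replicates 1 to 5 at 10 mg/L, and 2193, 2214, 2094, 2141 and 1977 CPM at 500 mg/L. It was 2099 to 2773 CPM in the controls (median 2324). The highest mouse at 10 mg/L reached well into the control range, while 2 mice at 10 mg/L and 2 at 500 mg/L lay below it. Srsf5 was set aside after its direction had been seen. With Srsf5 included, the sum was 1965 to 2713 CPM at 10 mg/L, 2270 to 2414 CPM at 500 mg/L and 2274 to 2997 CPM in the controls. Replicates 2 and 5 at 10 mg/L (2108 and 1965 CPM) and, narrowly, replicate 5 at 500 mg/L (2270 CPM) then lay below the controls. Of the 12 SR genes, 10 (83.3%) have an annotated transcript marked for nonsense-mediated decay in GENCODE M21, against 39.0% of the members and 26.4% of 15238 tested protein-coding genes. Gene-level counts sum such transcripts with the coding ones, so their shares were not measured. A retained-intron transcript was annotated for 75.2% of the members and 54.8% of tested coding genes. These shares also depend on how deeply a gene has been annotated.

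Comparing each dose with the controls of its own experiment holds the experiment constant. Of the tested genes, 0.0% passed edgeR's test at either dose, and neither edgeR, DESeq2 nor limma-voom called a member. The 10 mg/L mice had 15 members at an unadjusted p under 0.05, against 6.45% of all genes. They were 2 higher and 13 lower, against 3.78% and 2.66%. The median log2 difference was -0.04, and 97 members were negative. Leaving out 1 exposed mouse turned the 13 into 5 (replicate 2), 8 (replicate 4) or 6 (replicate 5). In those fits 2.02%, 2.47% and 2.31% of all genes were lower. Leaving out control replicate 2 gave 4, control replicate 4 gave 6, and replicate 1 of the exposed mice gave 23. Lower genes made up 1.68% of all genes without control replicate 2 and 4.25% without replicate 1 of the exposed mice. All 8 Sm core genes were negative (median -0.07), and 5 of them without replicate 2. The 500 mg/L mice had 11 such members, against 5.19% of all genes, 8 higher and 3 lower, against 2.73% and 2.46%, with a median of 0.01. The 8 higher were 5 without replicate 5 at 500 mg/L or control replicate 6, and 4 without control replicate 7. Without replicate 5 at 500 mg/L, 2.22% of all genes were higher. The 3 lower were 1 without replicate 4 or 5 at 500 mg/L or control replicate 6. Without replicate 4 or 5 at 500 mg/L, 2.52% of all genes were lower in either fit. The lower members were 5 when replicate 2 at 10 mg/L was left out, where 3.03% of all genes were lower.

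A few members separated the groups without overlap. Rbm14 and the SR relative Tra2a at 10 mg/L lay below all controls of experiment 2, as 0.545% of all genes did, and no member lay above, against 0.5% of all genes. Rbm14 had 58.6 to 79.9 CPM, against 86.9 to 95.3 CPM. In the mice at 500 mg/L, Rsrc1, Sf3b1 and the tri-snRNP helicase Snrnp200 lay above all controls of experiment 1 (0.455% of all genes), and the U2 genes Sf3a2, Sf3b4 and Sf3b5 below them (0.477%). Sf3b1 had 347, 350, 358, 364 and 387 CPM at 500 mg/L, against 319, 308, 337, 341 and 335 CPM in the controls of experiment 1, a log2 difference of 0.14 (SE 0.06, edgeR adjusted p = 0.954). Rsrc1 differed by 0.17 (SE 0.05, edgeR adjusted p = 0.831). Slu7 at 500 mg/L differed by 0.20 (SE 0.06) from its own controls, at 65.0 to 75.1 CPM, and Sf3b5 by -0.20 (SE 0.07). Of the 141 members, 35 were higher and 57 lower at both doses, 9 were higher only at 10 mg/L and 40 only at 500 mg/L, so 65.2% had the same sign, against 51.6% of all tested genes.

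**Figure D5:**
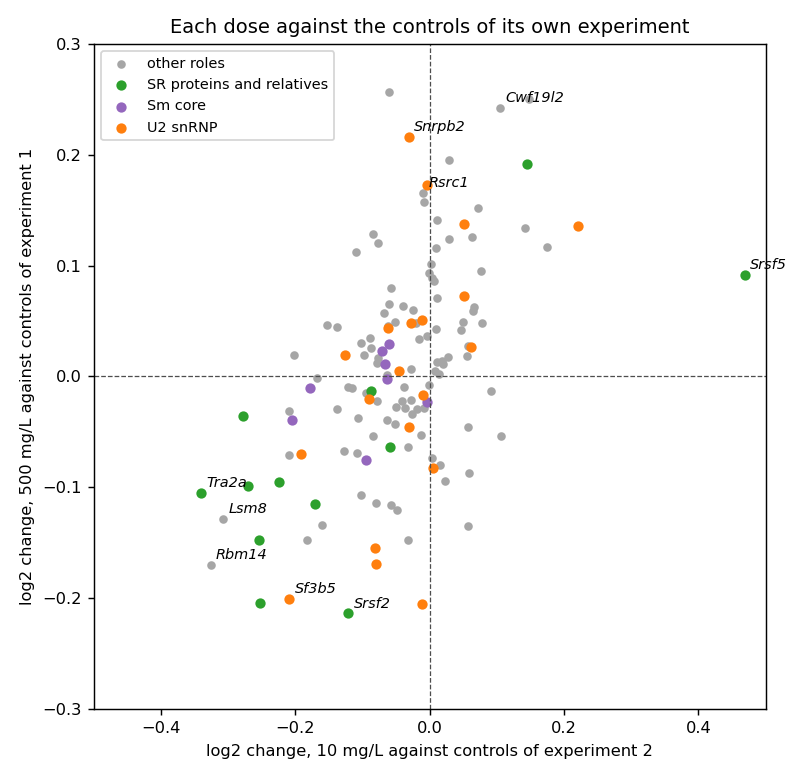
Log2 difference between mice at 10 mg/L and experiment 2 controls (horizontal axis) and between mice at 500 mg/L and experiment 1 controls (vertical axis), 1 point per member, with the SR, Sm core and U2 roles coloured. Cwc22 (-0.65, 0.70) and Gm32717 (-0.05, 1.23) lie outside the axes, and 10 of the 12 SR genes lie at the lower left.

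A direct comparison of 500 mg/L with 10 mg/L also compares experiment 1 with experiment 2, and dose and experiment cannot be told apart in it. EdgeR called no member, where 0.0112% of all genes passed, and the lowest adjusted p of a member was 0.113. DESeq2 called 6 members, all higher (among them Slu7, Mettl14, Rbm8a, Rsrc1 and Syf2), among 0.851% of the genes it tested, and limma-voom called none. An unadjusted p under 0.05 was found for 33 members, against 10.0% of all genes. They were 30 higher and 3 lower, against 5.61% and 4.43%. In 12 members all mice at 500 mg/L lay above all mice at 10 mg/L, and 1.4% of all genes did so. Among them were Lsm8, Mettl14, Mfap1a, Rbm8a, Rsrc1, Sf3b2, Slu7, Snrpd3, Syf2, Zcrb1 and Zrsr2. No member lay below, against 0.769% of all genes. The lower members numbered 7 when replicate 5 at 10 mg/L was left out, and 5 when control replicate 4 was. Without replicate 5 at 10 mg/L, 5.11% of all genes were lower.

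Mettl14 (Entrez 210529), which forms the mRNA N6-adenosine methyltransferase with Mettl3, had 45.3, 45.1, 49.4, 47.8 and 45.4 CPM at 500 mg/L, against 34.7, 35.1, 38.3, 36.9 and 37.9 CPM at 10 mg/L. The groups did not overlap, and the log2 difference was 0.35 (SE 0.07, edgeR adjusted p = 0.113). The controls of the matching experiments were apart in the same direction, at 38.6 ± 1.96 CPM in experiment 2 and 42.9 ± 3.71 CPM in experiment 1 (SD, n = 5 each). Against its own controls the gene differed by 0.12 (SE 0.06) at 500 mg/L and by -0.08 (SE 0.06) at 10 mg/L. Rbm8a had 107, 112, 114, 115 and 118 CPM at 500 mg/L, above every mouse at 10 mg/L, at a log2 difference of 0.28 (SE 0.07, edgeR adjusted p = 0.203). Rsrc1 and Slu7 differed by 0.25 (SE 0.05, edgeR adjusted p = 0.119) and 0.31 (SE 0.07, edgeR adjusted p = 0.181). Ddx39b had 228, 244, 265, 223 and 235 CPM at 500 mg/L, against 276, 305, 301, 251 and 244 CPM at 10 mg/L, a log2 difference of -0.21 (SE 0.09) with overlap. Phf5a differed by -0.29 (SE 0.12).

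Whether the effects of the doses, each taken against its own controls, differ from one another was tested as an interaction. EdgeR, DESeq2 and limma-voom called no member, edgeR passed 0.0% of all genes, and the lowest adjusted p of a member was 0.865. Rsrc1, Mettl14 and Mettl3 were higher at an unadjusted p under 0.05 and no member was lower. Of all genes 5.41% had such a p, 2.03% higher and 3.38% lower. The 3 were 0 without control replicate 2 and 1 without control replicate 1 or 4. Higher genes made up 1.40% of all genes without control replicate 2 and 1.74% without control replicate 1. A lower member appeared when control replicate 4 or 7, or replicate 1 at 10 mg/L, was left out.

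The control sets were also compared with each other. Between the controls of experiment 2 and those of experiment 1, edgeR called no member, with 0.157% of all genes passing, and the lowest adjusted p of a member was 0.0589. With an unadjusted p under 0.05 there were 22 members, against 9.78% of all genes. They were 8 higher in experiment 2 and 14 lower, against 4.54% and 5.24%. The 14 were 9 without control replicate 5. DESeq2 called 4 members (Snrpb, Zcrb1, Snrpg and Cwf19l1), among 1.07% of the genes it tested, and limma-voom called none. Without overlap, Ddx39b, Sf3b3, Snrpb and Snrpg were higher in experiment 2 (1.66% of all genes), and Cwc15, Cwc25, Hnrnpa2b1 and Zcrb1 lower (1.44%).

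Zcrb1 (Entrez 67197), a protein of the U11/U12 snRNP of the minor spliceosome, had 30.9, 34.5, 35.3, 34.1 and 31.4 CPM in the controls of experiment 2, against 41.1, 39.4, 48.4, 39.8 and 40.6 CPM in those of experiment 1. The sets did not overlap, and the log2 difference was -0.33 (SE 0.07, edgeR adjusted p = 0.0589). Without replicate 2 at 10 mg/L, a mouse of neither set, Zcrb1 passed at an edgeR adjusted p of 0.0402. Snrpg (Entrez 68011), the Sm G protein, had 61.3, 60.5, 64.0, 67.4 and 59.9 CPM in the controls of experiment 2, against 47.9, 47.9, 49.4, 46.0 and 55.7 CPM in those of experiment 1. Its log2 difference was 0.34 (SE 0.09, edgeR adjusted p = 0.15), and without replicate 2 at 10 mg/L it passed at 0.0469. Zcrb1 stood at 41.7, 41.1, 45.2, 41.0 and 42.8 CPM at 500 mg/L and at 38.0, 30.0, 36.4, 35.3 and 32.9 CPM at 10 mg/L. Against its own controls it differed by 0.02 at 500 mg/L and by 0.05 at 10 mg/L, on the log2 scale. Snrpg stood at 42.5, 56.4, 48.7, 46.1 and 49.2 CPM at 500 mg/L and at 66.7, 49.1, 70.5, 65.2 and 60.7 CPM at 10 mg/L, and differed from its own controls by -0.02 and -0.00.

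Snrpb, the Sm B protein, differed by 0.22 (SE 0.06, edgeR adjusted p = 0.16) between the control sets, Sf3b3 by 0.23 (SE 0.07, edgeR adjusted p = 0.216) and Ddx39b by 0.24 (SE 0.07, edgeR adjusted p = 0.247). Cwc15, of the Prp19-related complex, differed by -0.24 (SE 0.08) and Lsm4 by -0.27 (SE 0.09). Hnrnpa2b1 differed by -0.23 between the control sets and by 0.23 at 500 mg/L against all 10 controls, but by 0.12 against the controls of experiment 1 alone.

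Promoters were read for the 21 members named by rank in 4 of the comparisons. A promoter, as 250 bases before the start site, was found for 111 of the 141 members in RefSeq on GRCm38.p6. The counts were made on GRCm39, so these coordinates are not those of the counts. The letters CCGGAAG, read on both strands (CTTCCGG on the other), were present in 27.9% of the members' promoters, against 12.3% of those of 12120 tested coding genes and 7.05% of all 27025 promoters. These letters lie in the motif of ETS factors. Among these 21 members, 14 had a promoter and 6 of these held the letters: Srsf5, Snrpg, Ddx39b, Sf3b3, Zcrb1 and Cwc15. A match is a description and no test was made. Of the 8 members whose control sets did not overlap, no promoter was read for Snrpb, Cwc25 and Hnrnpa2b1. Of the 6, 3 promoters are shown, with the match in capitals, 5′ to 3′ on the strand of the gene.
Zcrb1 promoter, chr15:93398335-93398584, minus strand: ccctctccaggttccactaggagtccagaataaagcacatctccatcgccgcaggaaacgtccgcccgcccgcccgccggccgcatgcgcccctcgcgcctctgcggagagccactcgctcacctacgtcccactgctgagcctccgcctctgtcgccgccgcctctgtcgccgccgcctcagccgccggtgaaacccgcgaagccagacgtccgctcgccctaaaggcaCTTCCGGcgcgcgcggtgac
Snrpg promoter, chr6:86371290-86371539, plus strand: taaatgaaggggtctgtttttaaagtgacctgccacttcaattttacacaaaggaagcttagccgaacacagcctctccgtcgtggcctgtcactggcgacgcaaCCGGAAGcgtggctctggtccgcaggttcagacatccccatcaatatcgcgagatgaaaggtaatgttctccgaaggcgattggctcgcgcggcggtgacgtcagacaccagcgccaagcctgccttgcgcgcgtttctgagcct
Cwc15 promoter, chr9:14500369-14500618, plus strand: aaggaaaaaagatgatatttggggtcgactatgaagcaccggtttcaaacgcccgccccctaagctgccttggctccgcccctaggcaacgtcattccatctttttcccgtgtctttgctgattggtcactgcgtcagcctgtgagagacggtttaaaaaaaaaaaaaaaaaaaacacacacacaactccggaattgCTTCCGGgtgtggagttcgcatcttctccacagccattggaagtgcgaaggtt
Counted from the first base of the match, it lies 20 bases before the start site in Zcrb1, 53 bases in Cwc15 and 145 bases in Snrpg. Of the other letters searched, CCAAT was in 39.6% of the members' promoters and 36.2% of those of tested coding genes, GGGCGG in 53.2% and 56.3%, TATAAA in 9.01% and 6.95%, and TGACGTCA in 5.41% and 2.52%.

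Several paralog pairs with both copies in the list differed in level. Snrpb had 232 CPM per kb and its neuronal relative Snrpn 33.8 CPM per kb, Tra2b 241 and Tra2a 132 CPM per kb, and Ddx39b 201 and Ddx39a 38.0 CPM per kb. Zrsr2, a minor spliceosome factor, had 21.4 CPM per kb and its relative Zrsr1 15.4 CPM per kb. Where copies are near-identical the estimated counts depend on how reads were shared between them.

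Of 156 other genes of the same pathway listed beside the members, 154 were tested. EdgeR called 0 of them in each of the 7 comparisons. At an unadjusted p under 0.05, 3 were higher and 9 lower at 10 mg/L, and 19 higher and 6 lower at 500 mg/L, each against the 10 controls, where 3.08% and 3.14% of all genes were higher and lower at 10 mg/L and 4.51% and 4.18% at 500 mg/L. Against own controls they were 4 higher and 5 lower at 10 mg/L, against 3.78% and 2.66% of all genes. At 500 mg/L they were 8 higher and 2 lower, against 2.73% and 2.46% of all genes. The 9 lower at 10 mg/L were 23 without replicate 1, where 4.71% of all genes were lower, and 5 without control replicate 8. The 8 higher at 500 mg/L against own controls were 3 without control replicate 7 and 14 without control replicate 10. The smallest p at 10 mg/L belonged to Tardbp, an RNA-binding protein that represses cryptic exons, at a log2 difference of -0.24 (SE 0.07, edgeR adjusted p = 0.633), and Celf1, a splicing and decay regulator, at -0.15 (SE 0.05, edgeR adjusted p = 0.65). At 500 mg/L these were Luc7l2, a U1-associated protein, at 0.27 (SE 0.06, edgeR adjusted p = 0.173), and Cwc27, a peptidyl-prolyl isomerase of the spliceosome, at 0.28 (SE 0.08, edgeR adjusted p = 0.297).

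In the authors' deposited table, which rests on the same mice, 5 members had an adjusted p under 0.05 at 10 mg/L against the controls, all lower (Lsm8, Rbm8a, Sf3b5, Srsf1 and Srsf9), or 3.55% of the members. Of all genes in the authors' deposited table, 0.611% had one, 0.358% on the lower side. At 500 mg/L the authors' deposited table lists 7 members, against 1.26% of all genes (0.771% higher and 0.49% lower), among them Cwf19l2, Rbm41, Rsrc1 and Slu7 higher and Phf5a and Sf3b5 lower. For 500 mg/L against 10 mg/L it lists 8, against 1.59% of all genes (1.02% higher and 0.567% lower), among them Mettl14, Mfap1a, Rbm8a, Rsrc1, Slu7 and Syf2 higher and Snrpg lower. In the authors' deposited table Slu7 had an adjusted p of 0.0159 at 500 mg/L against the controls and a signed fold of 1.195. The authors give it the same adjusted p for 500 mg/L against 10 mg/L, at unlike raw p-values (8.13e-06 and 8.38e-06). Their adjustment may thus span the comparisons, whereas here each comparison was adjusted on its own. The authors' counts and those of edgeR therefore may not rest on like thresholds.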

How the data were processed

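The libraries were poly(A)-selected RNA from follicles of 20 mice. Per the submitters' processing notes, Salmon 1.2.0 was among the tools, as were FastQC 0.11.8, R 4.1.2, limma and edgeR, and the build was GRCm39. The authors deposited estimated counts per gene, which Salmon shares among similar transcripts, so near-identical copies can exchange reads. They were rounded, which moved a library total by a median of 79.96. Per the file headers, the table of results holds the authors' average log2 expression, p-values raw and adjusted, a score over the groups (F statistic) and signed fold changes. Its gene annotation chose the members.

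Counts were fitted in R 4.3.3 with edgeR 4.0.16 (robust quasi-likelihood, TMM, filter by group, prior count 2), over all 20 mice with 1 mean per group, and with 1 mean per group and experiment for the comparisons within and between experiments. Tests were two-sided, with Benjamini-Hochberg adjustment over 17810 genes at 0.05. A log2 difference is the first-named group minus the second. DESeq2 1.42.0 and limma-voom (limma 3.58.1) were alternatives, beside other scalings and filters, a replicate block and each mouse left out. Steps were checked on simulated data. In 65 pairs of same-group libraries, chi-square per gene was 22.5 or more, so none was a copy of another.

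The members, role lists and rules for named genes were chosen with earlier results of these data known. Members were named for the 3 smallest p per direction in 4 comparisons, level, spread, paralogy and, among listed pathway genes, p, and others where a count or pattern called for them, after their values had been seen. Values of 1 member are not reported here by name, though it stays in all counts over the members. Protein sequences were not used here.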

Additional observations from a re-analysis of the deposited data

Results flagged for a closer look

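A rule that marks about 1 in 20 groups of independent, normal values was applied to 138 groups. They held values of named genes, and the members' share of counts and mean level. Some genes were named for their spread and the same mice recur, so that rate may not hold here. In 14 groups a mouse had a gap to its neighbour that was large against the range of its group. At 10 mg/L these were replicate 2 for Sf3b5 (38.9 CPM, against 50.9 to 54.5 CPM in the others), Rnu1a1 (47.2 CPM, others up to 0.610 CPM) and Rnu2-10 (9.68 CPM, others up to 0.427 CPM), and replicate 3 for Cwc22 (419 CPM, others up to 131 CPM). At 500 mg/L they were replicate 5 for Rsrc1 (47.2 CPM, others up to 45.1 CPM), Rnu1a1 (0.296 CPM, others up to 0.116 CPM) and Rnu2-10 (0.524 CPM, others up to 0.168 CPM).

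In the controls, replicate 4 stood apart for Srsf3 (highest, 510.5 CPM, others up to 403 CPM), Ddx39a (highest, 62.3 CPM, others up to 51.4 CPM) and Cwc25 (lowest, 23.9 CPM, others from 25.5 CPM). Replicate 3 was the highest for Cwc22 (550.2 CPM, others up to 294 CPM) and Gm21992 (2.42 CPM, others up to 1.69 CPM). Replicate 9 was the lowest for Rbm14 (64.2 CPM, others from 83.5 CPM), and replicate 10 the highest for Snrpn (30.5 CPM, others up to 26.9 CPM).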

How the results depend on the processing

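Log2 differences of Ddx39b between the control sets, and of Sf3b1 and Lsm6 at 500 mg/L against all controls, were not examined under the other settings. Of 53 others given for single genes, 49 kept their sign under every setting tried, and 15 values passed the threshold, most of them under DESeq2. The other 4 are against own controls. Snrpg at 10 mg/L was 0.0138 with upper-quartile factors, 0.0068 with a filter of at least 1 CPM in at least 5 mice and 0.0047 in a fit of only the mice compared, and ran from -0.0432 to 0.0762 with each mouse left out. At 500 mg/L it ran from -0.0845 to 0.0190, and Zcrb1 from -0.0083 to 0.0758. Gm32717 at 10 mg/L was 0.30 with limma-voom and ran from -0.39 to 0.61. The number of members called was 0 in the tests reported and moved in 5 cases. Under DESeq2 it was 4 at 500 mg/L against the controls, 6 at 500 mg/L against 10 mg/L and 4 between the control sets. Between the control sets it was 1 with a filter of at least 1 CPM in at least 5 mice (Zcrb1, adjusted p = 0.0448), and 0 to 2 with each mouse left out, the 2 being Zcrb1 and Snrpg without replicate 2 at 10 mg/L. The cause was not tested. The other scalings, limma-voom, no filter and a fit of only the mice compared called none.

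With each mouse left out, the median log2 difference of the members ran from -0.07 to -0.03 at 10 mg/L and from -0.01 to 0.02 at 500 mg/L against all controls, and from 0.04 to 0.09 at 500 mg/L against 10 mg/L. Against own controls it ran from -0.06 to -0.02 at 10 mg/L and from -0.02 to 0.03 at 500 mg/L. Replicate numbers are shared between groups, but same-numbered mice deviated together by correlations of -0.13 to 0.23, so they share only a number. With the replicate block, edgeR called 0 members, and the medians were -0.04 at 10 mg/L, 0.02 at 500 mg/L and 0.07 at 500 mg/L against 10 mg/L. The median SE of the members at 10 mg/L was 0.07, and its parts due to counting and to mice were not separated.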
